A study of Mus musculus with 6 samples.

Results

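The 40 genes described here are the chaperones and stress factors of the heat shock response and of the unfolded protein response of the endoplasmic reticulum (ER). They were chosen by symbol, for their function, with a rule that uses no measured value, but with earlier results of these data known. Of the 40 genes, 38 were represented on the array by a probe set with a single gene symbol, out of 18193 genes so represented, and all 38 were bright enough to be tested, out of 11703 genes tested. The other members, Hsp90ab1 and Hsf1, were not analysed here. The list holds 16 cytosolic chaperones and co-chaperones, 2 heat shock transcription factors, 3 mitochondrial chaperones, 10 ER chaperones and folding enzymes, 3 ER stress transcription factors and 6 small heat shock proteins.

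RNA came from tdTomato-positive cells sorted out of enzymatically dissociated ovaries of Gli1-CreERT2; Rosa-LSL-tdTomato females of the 129S6/SvEvTac strain at 2 months of age. In these mice a tamoxifen-activated Cre driven from Gli1, a hedgehog-responsive gene, switches on a permanent red label, so a labelled adult cell is one that had active Cre, or descends from one that had, when tamoxifen was given. In the mesonephros-derived group tamoxifen was given in fetal life, with doses at E12.5, at E14.5 and again at E16.5 (embryonic days), and in the ovary-derived group it was given after birth, on days 1 to 3, through the nursing dam. Each group had 3 samples, each hybridised to 1 array. All 6 samples carried the same alleles and strain. The groups differ in the time of tamoxifen, so cell origin and time of tamoxifen cannot be told apart. The label marks cells by Gli1 activity, and Gli1 is also expressed in mesenchymal cells other than theca. The labels do not say whether the samples of a group came from separate animals or from pools, so the p-values speak only for how far these samples scatter, and that scatter may be technical. Because RNA concentrations varied, a fixed volume of RNA was amplified from each sample.

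Chaperones bind unfolded proteins and help them fold, or hand them on for degradation. In the cytosol, heat and other protein damage release Hsf1, which binds heat shock elements in promoters and induces the inducible Hsp70 genes, Hsp90 and their partners within minutes. In the ER, unfolded proteins activate sensors that lead to Xbp1 splicing, Atf6 cleavage and Atf4 translation. These factors raise the ER chaperones, in part through the ER stress response element. Heat shock genes and immediate early genes are also known to respond to tissue dissociation, and smooth muscle is known for high levels of several small heat shock proteins.

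The promoters of 6 members are shown because heat shock genes and ER chaperones are known for the elements they hold. They are RefSeq windows of 250 bases ending just before the transcript start (GRCm38.p6), printed along the gene's strand, with matches to the searched elements in capitals. Both strands were searched for GAANNTTC and TTCNNGAA, the arrangements of a pair of heat shock units, for both joined over a shared unit (GAANNTTC with TTCNNGAA starting at its TTC, or 3 units), and for the ER stress response element, CCAAT and CCACG with any 9 bases between them. The first pair of motifs overlap each other within the 3-unit one. Windows were found for 32 of the 40 members, 39 windows in all.
Hspa1a, chr17:34972157-34972406, minus strand: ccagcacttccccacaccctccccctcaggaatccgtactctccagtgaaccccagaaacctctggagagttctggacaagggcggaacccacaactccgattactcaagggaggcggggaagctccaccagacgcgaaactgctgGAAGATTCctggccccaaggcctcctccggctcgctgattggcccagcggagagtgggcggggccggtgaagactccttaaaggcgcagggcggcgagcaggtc
Hspa1b, chr17:34959239-34959488, minus strand: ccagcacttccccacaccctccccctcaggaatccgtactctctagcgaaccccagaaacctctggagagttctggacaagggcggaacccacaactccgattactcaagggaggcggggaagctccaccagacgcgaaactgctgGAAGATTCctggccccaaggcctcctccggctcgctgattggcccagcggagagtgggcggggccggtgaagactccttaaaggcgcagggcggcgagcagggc
Hspe1, chr1:55087898-55088147, plus strand: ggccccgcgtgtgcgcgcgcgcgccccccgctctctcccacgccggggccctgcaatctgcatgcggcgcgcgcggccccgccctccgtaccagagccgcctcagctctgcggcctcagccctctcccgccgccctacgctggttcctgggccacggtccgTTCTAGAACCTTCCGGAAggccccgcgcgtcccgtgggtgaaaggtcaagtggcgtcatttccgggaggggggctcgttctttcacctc
Hspa5, chr2:34771840-34772089, plus strand: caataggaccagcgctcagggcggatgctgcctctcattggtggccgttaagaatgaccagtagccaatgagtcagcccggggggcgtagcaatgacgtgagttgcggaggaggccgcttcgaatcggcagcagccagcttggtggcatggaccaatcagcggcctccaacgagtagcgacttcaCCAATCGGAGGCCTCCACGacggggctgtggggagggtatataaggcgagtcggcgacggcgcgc
Hsp90b1, chr10:86705445-86705694, minus strand: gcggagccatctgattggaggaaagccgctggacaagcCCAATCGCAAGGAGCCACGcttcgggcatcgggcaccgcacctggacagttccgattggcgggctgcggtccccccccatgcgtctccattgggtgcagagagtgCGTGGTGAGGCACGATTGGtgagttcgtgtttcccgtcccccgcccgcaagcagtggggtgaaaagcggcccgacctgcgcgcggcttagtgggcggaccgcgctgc
Canx, chr11:50325674-50325923, minus strand: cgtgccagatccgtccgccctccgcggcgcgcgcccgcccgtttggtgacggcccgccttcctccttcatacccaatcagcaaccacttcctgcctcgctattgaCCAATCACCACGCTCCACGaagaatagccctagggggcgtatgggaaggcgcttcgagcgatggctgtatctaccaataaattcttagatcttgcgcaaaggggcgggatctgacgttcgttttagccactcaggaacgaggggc

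The ER stress response element was present in the windows of 6 of 9 ER members, Calr, Canx, Dnajc3, Hsp90b1, Hspa5 and Pdia6, and in no window of the other classes. Of all 32851 promoter windows of this length, 0.113% held it. The 19-base match read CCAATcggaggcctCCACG in Hspa5, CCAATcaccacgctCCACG in Canx, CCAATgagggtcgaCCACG in Calr and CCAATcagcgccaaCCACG in Dnajc3, with the fixed letters in capitals. Hsp90b1 held 2 matches, on opposite strands. GAANNTTC was found in Dnaja1, Hspa1a, Hspa1b, Hspb1, Hspb6, Hspd1 and Hspe1, which is 17.9% of the members' windows, against 6.69% of all windows. TTCNNGAA was found in Dnajb4, Hspd1, Hspe1 and Hsph1, or 12.8% of the members' windows, against 7.17% of all windows. The 3-unit element was found in Hspd1 and Hspe1, against 0.466% of all windows. These 2 genes lie head to head on chromosome 1 with 216 bases between the Hspe1 start and the nearest Hspd1 start upstream of it, so the capitals in the Hspe1 window also lie in an Hspd1 window. The Hspa1a and Hspa1b windows were alike at 247 of 250 positions. Such matches describe the letters and are not evidence of binding.

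Signals are MAS5 intensities in arbitrary units, with 1 probe set per gene, and changes are mesonephros-derived minus ovary-derived on the log2(signal + 16) scale with the standard error (SE) and adjusted p of limma over all 11703 genes. None of the 38 members passed an adjusted p of 0.05 in limma, where 0.0427% of all genes tested passed (0.0342% higher and 0.00854% lower), and the members' adjusted p ranged from 0.263 to 0.988. At an unadjusted p of 0.05, 10 members were called, 6 higher and 4 lower, or 26.3% of the 38, against 13.7% of all genes tested (6.46% higher and 7.22% lower). That count moved with the processing. It was 4 of 37 members (10.8%, against 14.1% of all genes) with probe sets averaged per gene, 5 (13.2%, against 13.4%) without _x_at and _s_at probe sets and 1 (2.63%, against 2.61%) with the poly-A control level as a covariate. Without ovary-derived array 1, 2 or 3 it was 4 (10.5%, against 5.45%), 3 (7.89%, against 6.41%) or 5 (13.2%, against 8.18%). Of the 38, 23 had a change above 0, where 43.5% of all genes did, and the median change was 0.11, against −0.08 over all genes. Many members were bright, and direction differed with brightness. Of the brightest 2926 genes tested, 1553 had a change above 0 and 1373 below, with a median of 0.03. At an unadjusted p of 0.05 in limma, 358 of these 2926 were higher and 172 lower. The sign of the members' median rested on 1 library, since it was −0.086 without mesonephros-derived array 1, and it was also below 0 with quantile normalization (−0.038) and with array weights (−0.0082). For 10 members, again 26.3%, the groups did not overlap, with 5 higher and 5 lower. For all genes tested that share was 22.2%, made of 9.56% higher and 12.6% lower, so the members' share lay near the background. By class, the median change was 0.09 in the cytosolic members, 0.42 in the mitochondrial, −0.24 in the ER chaperones, 0.11 in the ER stress factors and 0.30 in the small heat shock proteins. Without mesonephros-derived array 1 the cytosolic median was −0.115 and the mitochondrial one 0.17, and with quantile normalization they were −0.051 and 0.12. Quantile normalization turned the direction of 9 members, Hsp90aa1, Dnaja1, Dnajb1, Dnajb4, Hsf2, Hsp90b1, Pdia3, Atf4 and Hspb8, and median centring that of 3, Hsf2, Calr and Hspb8.

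**Figure D1:**
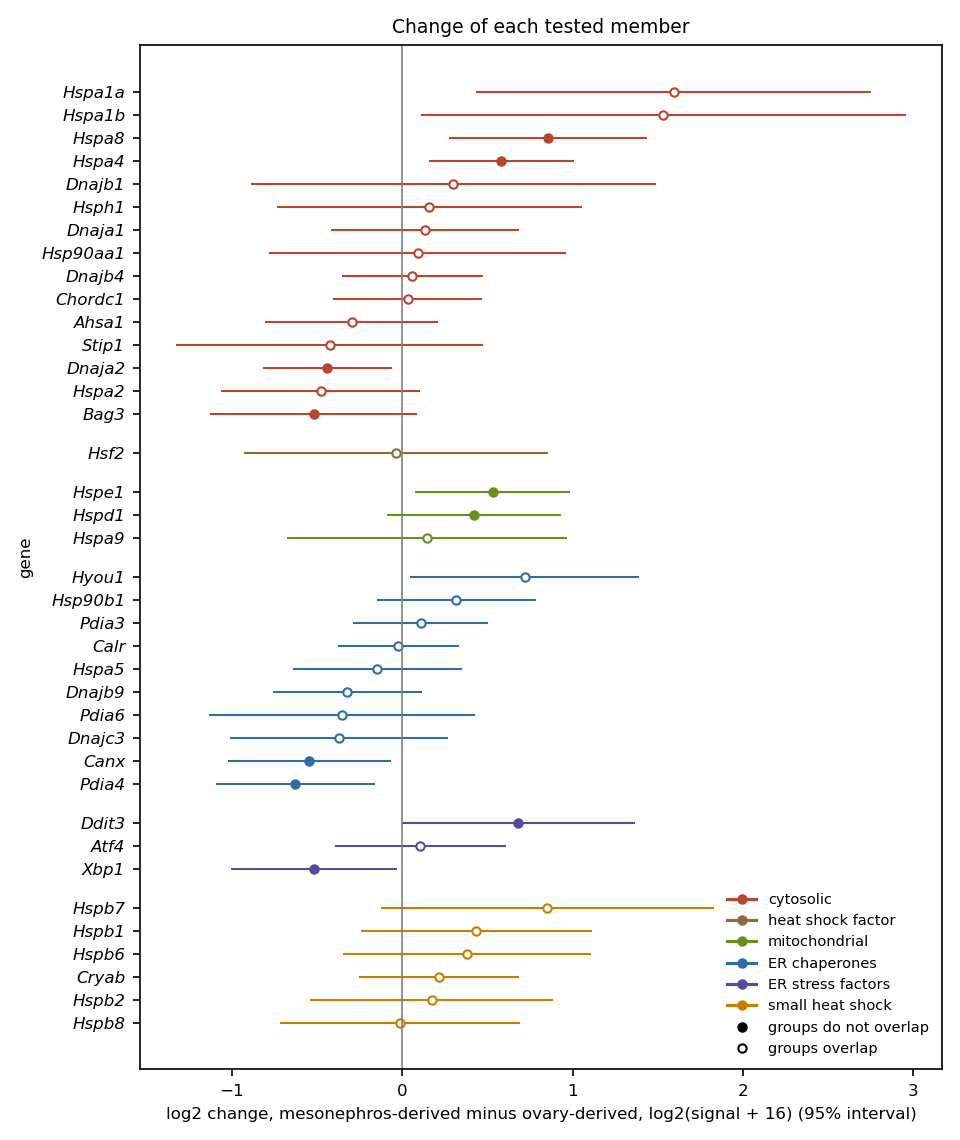
Change of each of the 38 tested members with its 95% interval from limma, mesonephros-derived minus ovary-derived, on the log2(signal + 16) scale, by class; filled points mark the 10 members whose groups did not overlap. The highest changes are those of Hspa1a (1.59) and Hspa1b (1.53), and the lowest is that of Pdia4 (−0.63).

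The arrays also differed outside the members. Relative to their ovary-derived mean, the poly-A control probe sets measured 14.96, 14.15 and 2.43 times on mesonephros-derived arrays 1, 2 and 3, and 0.683, 0.832 and 1.76 times on the ovary-derived arrays. On the same scale, the hybridisation control probe sets measured 3.47, 2.74 and 1.40 times on the mesonephros-derived arrays and 0.841, 0.953 and 1.25 times on the ovary-derived arrays. The cause of either difference was not tested. The Gapdh 3'/5' signal ratio was 5.29, 3.48 and 2.63 on the mesonephros-derived arrays and 1.94, 2.39 and 2.86 on the ovary-derived arrays, whereas that of Actb was 0.887, 0.930 and 0.894 on the mesonephros-derived arrays and 0.958, 1.01 and 0.920 on the ovary-derived arrays. Array correlations were 0.845 to 0.896 within the mesonephros-derived group and 0.963 to 0.973 within the ovary-derived group. Mesonephros-derived array 3 had correlations of 0.946 to 0.950 with each ovary-derived array, above its correlation with its own group. Theca markers were present in both groups, with 7 of 9 measured and a summed signal of 39235 to 51204 in mesonephros-derived cells and 26989 to 33302 in ovary-derived cells. Of these 7, 4 had a change above 0 and 3 below, from 2.67 for Cyp17a1 to −0.81 for Gli1. Smooth muscle markers were higher in mesonephros-derived cells for 12 of 12 genes, with sums of 98954 to 122050 against 44254 to 48599.7 in ovary-derived cells, and Myh11 (change 1.92, adjusted p = 0.0277) and Tagln (1.48, adjusted p = 0.0341) rose in limma, although with the poly-A control level as a covariate 0 genes passed. In bulk samples, fewer cells of a type and less RNA per cell cannot be told apart. Stroma sums were 87661 to 137089 in mesonephros-derived cells and 65045 to 77409.8 in ovary-derived cells. Endothelial sums were 3379.9 to 5519 in mesonephros-derived cells and 5109.6 to 8203 in ovary-derived cells, with Tie1 below the brightness floor. Of the 7 endothelial genes tested, 6 had a change below 0 and 1 above, with a median of −1.52. The lowest endothelial sum was that of mesonephros-derived array 1. Macrophage sums were 482 to 5294 in mesonephros-derived cells and 3431 to 4835 in ovary-derived cells, with Cd14 below the floor. All 6 macrophage genes tested had a change below 0, with a median of −0.76. The sum of 482 was that of mesonephros-derived array 1, which held the lowest signal for all 6. The sums on mesonephros-derived arrays 2 and 3 were 5294 and 2309. Granulosa sums were 4895 to 6524 in mesonephros-derived cells and 4861 to 6480 in ovary-derived cells, with Fshr, Amh, Inhbb and Nr5a2 of 7 measured below the floor. The floor applied to the mean over all 6 arrays, so a gene below it could be brighter on some. Amh had 511, 234 and 33.4 on the mesonephros-derived arrays and 20.7, 28.1 and 34.7 on the ovary-derived arrays. Nr5a2 had 16.2, 66.3 and 15.6 on the mesonephros-derived arrays and 244, 185 and 95.3 on the ovary-derived arrays. Of 8 oocyte markers 7 lay below the floor, and their sums were 327 to 723 in mesonephros-derived cells and 329 to 387 in ovary-derived cells. No marker of these lists was listed at 0. The part of the markers and of the 3'/5' ratios in the results below was not tested. Values with the poly-A control level as a covariate are given where they turn a direction, for some members only in the closing section.

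Among the cytosolic members, the widest differences were those of the stress-inducible Hsp70 genes. Hspa1a, an inducible Hsp70, had signals of 19295, 8129.9 and 4447 on mesonephros-derived arrays 1, 2 and 3, and 2019.7, 2473 and 5032 on ovary-derived arrays 1, 2 and 3. The groups overlapped, since ovary-derived array 3 lay above mesonephros-derived array 3. The mean was 10624 ± 7732 in mesonephros-derived cells and 3175 ± 1624 in ovary-derived cells (SD, n = 3 each). The log2 change was 1.59 ± 0.51 (SE), or 3.02-fold, with a 95% interval of 0.44 to 2.75 and an adjusted p of 0.28 in limma. Without mesonephros-derived array 1 the change was 1.03, and without mesonephros-derived array 3 it was 2.09. Hspa1b, its neighbour and near-identical copy, had signals of 42402, 20442 and 6532 on the mesonephros-derived arrays and 3758, 5385 and 11509 on the ovary-derived arrays. Mesonephros-derived array 3 lay below ovary-derived array 3 here too, so the groups overlapped. The change was 1.53 ± 0.63 (SE; adjusted p = 0.35 in limma), and the other probe sets of Hspa1b gave 1.17 and 1.15. Without mesonephros-derived array 1 the 1.53 became 0.91, and without mesonephros-derived array 3 it was 2.26. Probe sets of near-identical copies may share signal, so the values of Hspa1a and Hspa1b may not be independent. With the poly-A control level added to the fit as a covariate, the change turned to −0.38 for Hspa1a and −1.17 for Hspa1b. Because that level nearly follows the groups, these values are not corrected directions.

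Hspa8, the constitutive Hsp70 that clears clathrin coats and folds new proteins, had signals of 40283, 31899.6 and 20299.5 on the mesonephros-derived arrays and 14844, 14731 and 20071 on the ovary-derived arrays. All 3 mesonephros-derived arrays lay above all 3 ovary-derived arrays, though array 3 of each group stood close together. The change was 0.86 ± 0.26 (SE) with a 95% interval of 0.28 to 1.44, and its adjusted p of 0.263 in limma was the lowest of the 38 members. The other 3 probe sets of Hspa8 gave 0.42, 0.57 and 0.61, with overlapping groups, and the change was 0.090 with quantile normalization (adjusted p = 0.657 in limma) and −0.12 with the poly-A covariate. Hspa4, an Hsp110 exchange factor that recharges Hsp70 with ATP, had signals of 8712, 6539.6 and 6218 on the mesonephros-derived arrays and 4660.5, 5201 and 4347 on the ovary-derived arrays. The groups did not overlap. The change was 0.58 ± 0.19 (SE; adjusted p = 0.283 in limma), but the other 3 probe sets of Hspa4 pointed the opposite way, at −0.58, −0.24 and −0.32, and the mean of all its probe sets gave −0.14. Without mesonephros-derived array 1 the change was 0.23.

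Of the J-domain proteins, which deliver substrates to Hsp70, Dnaja2 had signals of 2631, 2659 and 2909 on the mesonephros-derived arrays and 3585, 3949 and 3603 on the ovary-derived arrays. Its mesonephros-derived arrays all lay below its ovary-derived arrays. The change was −0.44 ± 0.17 (SE; adjusted p = 0.326 in limma), but of the other Dnaja2 probe sets 1 gave −0.42 and 2 pointed the opposite way, at 0.31 and 0.14, and the mean of all its probe sets gave −0.10. Dnajb1, the J-domain partner most closely tied to the heat shock response, had signals of 21312, 7009 and 4744 on the mesonephros-derived arrays and 5985, 5156 and 12302 on the ovary-derived arrays. Its highest and lowest signals both came from mesonephros-derived cells, and the change was 0.30 ± 0.52 (SE). The other Dnajb1 probe set gave −0.35, and with the poly-A covariate the change turned to −1.51. Dnaja1 and Dnajb4 had changes of 0.14 and 0.06 with overlapping groups. Their other probe sets past the floor gave 0.25 and −0.42 for Dnaja1 and 0.11 and −1.03 for Dnajb4. The groups did not overlap for the −0.42 and the −1.03.

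Hsp90aa1, the inducible cytosolic Hsp90, had signals of 14286, 5730.2 and 4174 on the mesonephros-derived arrays and 6555, 6178 and 7006 on the ovary-derived arrays. Mesonephros-derived array 1 was the highest of the 6, and mesonephros-derived arrays 2 and 3 were the lowest. The change was 0.09 ± 0.39 (SE; adjusted p = 0.934 in limma), and its 95% interval of −0.78 to 0.96 covered both directions. With the poly-A covariate the change turned to −1.04. Of the Hsp90 partners, Stip1, which hands clients from Hsp70 to Hsp90, had a change of −0.43, with signals of 352 to 1120.3 in mesonephros-derived cells and 901 to 1021 in ovary-derived cells. Ahsa1, which speeds the Hsp90 ATPase, had a change of −0.30, with signals of 1257 to 1984 in mesonephros-derived cells and 1886 to 2081 in ovary-derived cells. Chordc1, another Hsp90 co-chaperone, had a change of 0.03. The groups overlapped for all 3 partners.

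The remaining cytosolic members were Hsph1, Hspa2 and Bag3. Hsph1, an Hsp110 exchange factor like Hspa4, ranged over 1727 to 5999 in mesonephros-derived cells and 2439 to 2718 in ovary-derived cells, with a change of 0.16. Hspa2, an Hsp70 best known from the testis, ranged over 1020.1 to 1832 in mesonephros-derived cells and 1689.6 to 1859.7 in ovary-derived cells, with a change of −0.48. Bag3, which links Hsp70 to the small heat shock proteins and to autophagy, had signals of 572, 403 and 550.1 on the mesonephros-derived arrays and 795, 721 and 675 on the ovary-derived arrays. All 3 mesonephros-derived arrays lay below the ovary-derived ones for Bag3, and the change was −0.52 ± 0.27 (SE; adjusted p = 0.418 in limma). Hsf2, a heat shock factor known for roles in development, had signals of 253, 136 and 209.9 in mesonephros-derived cells and 240.4, 158 and 207 in ovary-derived cells, with a change of −0.04.

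**Figure D2:**
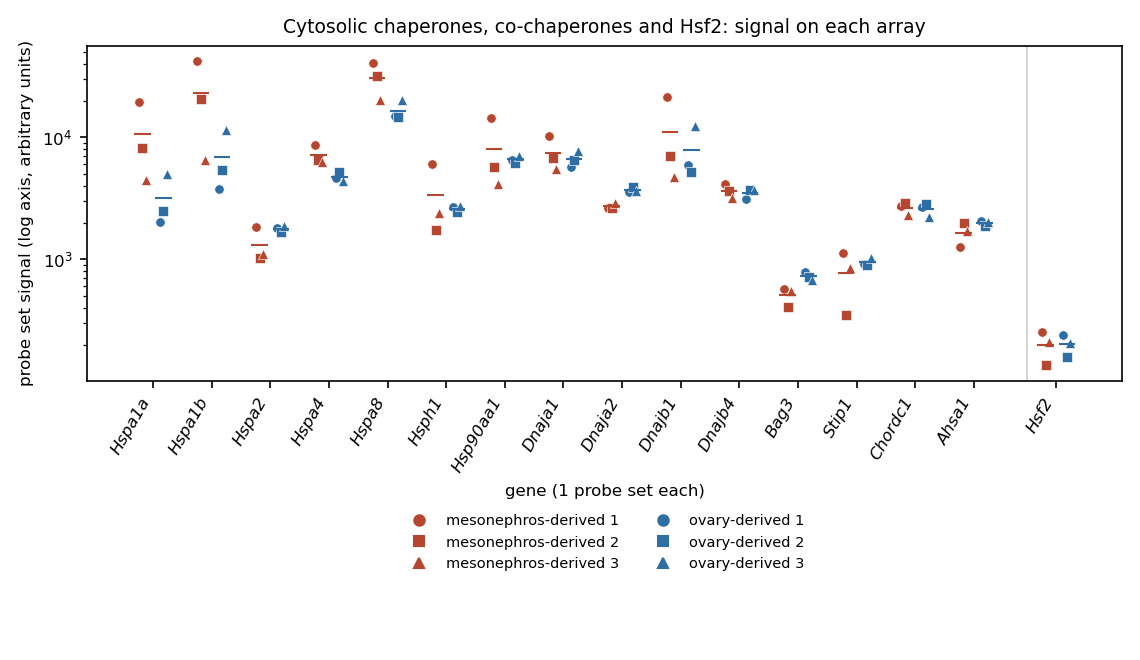
Signal of each cytosolic member and of Hsf2 on each of the 6 arrays (log axis, arbitrary units); symbols mark the array and bars the group mean. Hspa8 and Hspa4 lay higher, and Dnaja2 and Bag3 lower, on every mesonephros-derived array than on any ovary-derived array, while mesonephros-derived array 1 stood far above arrays 2 and 3 for Hspa1b, Hsph1, Hsp90aa1 and Dnajb1.

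In the cytosolic class 10 of 15 tested members had a change above 0 and 5 below. At an unadjusted p of 0.05 in limma 4 were called higher and 1 lower, where 6.46% of all genes tested were higher and 7.22% lower. Without overlap of the groups were 4, or 26.7%, of which 2 were higher and 2 lower. Over all genes that share was 22.2%, made of 9.56% higher and 12.6% lower. Averaged over the class, the log2 signal stood 0.75, 0.037 and −0.16 above the ovary-derived mean on mesonephros-derived arrays 1, 2 and 3, and at −0.12, −0.072 and 0.20 on the ovary-derived arrays. The class thus stood high on 1 mesonephros-derived array, and on the other two it lay within the range of the ovary-derived arrays or just below it. Over all 38 members, mesonephros-derived array 1 held the highest signal for 22, or 57.9%, against 26.1% of all genes tested and 37.7% of the brightest 2926 of them. The median SD of log2 signal was 0.42 in the mesonephros-derived and 0.14 in the ovary-derived group for the members, and 0.48 in the mesonephros-derived and 0.21 in the ovary-derived group for all genes.

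Immediate early genes, which respond to cell handling, were read beside the heat shock genes. Of 23 tested, 5 had a change above 0 and 18 below, with a median of −0.48, and 0 passed an adjusted p of 0.05 in limma. At an unadjusted p of 0.05 in limma 1 was higher and 5 lower, where 6.46% of all genes tested were higher and 7.22% lower. The mean of the immediate early genes stood at 0.44, −0.84 and −0.95 on mesonephros-derived arrays 1, 2 and 3. On the ovary-derived arrays it stood at −0.20, −0.056 and 0.25. In each group the array with the highest immediate early mean was thus also the one with the highest cytosolic chaperone mean. Their summed signal was 68007 to 185133 in mesonephros-derived cells and 98110.5 to 137978 in ovary-derived cells. Ier2, an early growth-response gene, had signals of 1125, 632 and 623 on the mesonephros-derived arrays and 2048, 2204 and 2191 on the ovary-derived arrays. The groups did not overlap for Ier2, and the change was −1.47 ± 0.27 (SE; adjusted p = 0.126 in limma). Ier5 and the transcription factor Egr3 had changes of −1.05 and −1.13, also without overlap. The part of cell handling in the chaperone values was not tested.

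**Figure D3:**
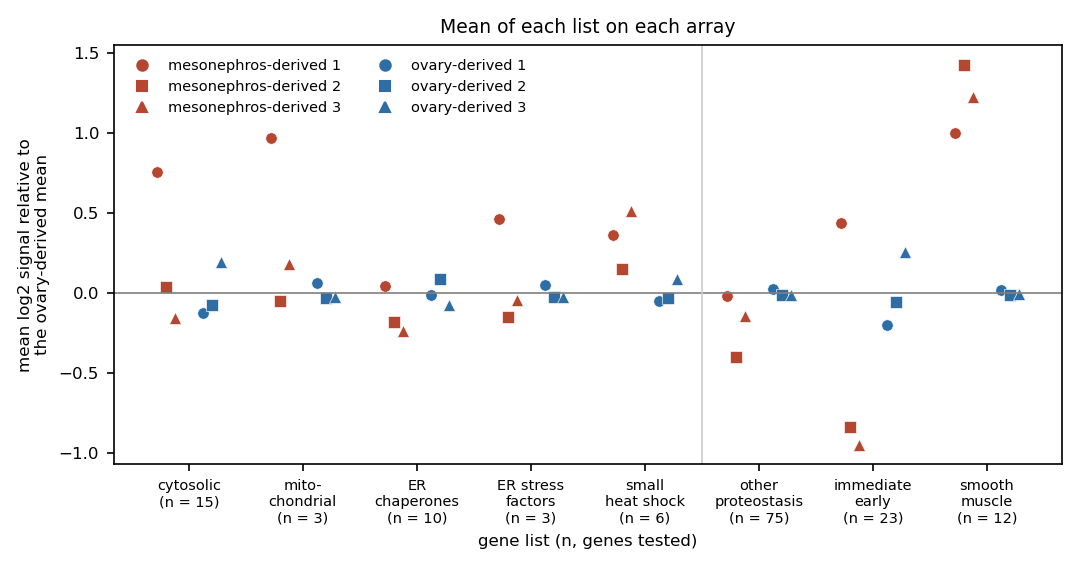
Mean log2 signal of each gene list on each array relative to the ovary-derived mean, for 5 classes of members and for 3 further lists. Mesonephros-derived array 1 lies at 0.75 for the cytosolic and 0.97 for the mitochondrial members, away from arrays 2 and 3, whereas the smooth muscle list lies between 1.00 and 1.43 on all 3 mesonephros-derived arrays.

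All 3 mitochondrial members had a change above 0. Hspd1, the Hsp60 ring that folds imported proteins, had signals of 12706, 6969.6 and 8237 on the mesonephros-derived arrays and 6655, 6819 and 6675 on the ovary-derived arrays. Hspe1, the Hsp10 lid of that ring, had signals of 11239.6, 7542 and 7899 on the mesonephros-derived arrays and 6905, 5554 and 5760.4 on the ovary-derived arrays. For both genes every mesonephros-derived array lay above every ovary-derived array, with array 1 the highest. The change of Hspd1 was 0.42 ± 0.23 (SE; adjusted p = 0.433 in limma), and that of Hspe1 was 0.53 ± 0.20 (SE; adjusted p = 0.32 in limma), while the other Hspe1 probe set gave 0.13. Without mesonephros-derived array 1 the changes were 0.17 for Hspd1 and 0.35 for Hspe1. This gene pair shares the promoter region shown above. Hspa9, the Hsp70 that pulls proteins into the mitochondrion, had signals of 7529.6, 2443 and 3197 on the mesonephros-derived arrays and 3536, 3508 and 3503 on the ovary-derived arrays. Its ovary-derived arrays were almost equal and lay between mesonephros-derived array 1 and arrays 2 and 3, and the change was 0.15 ± 0.36 (SE). The class mean stood at 0.97, −0.050 and 0.18 on mesonephros-derived arrays 1, 2 and 3.

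In the ER, the chaperones showed no common direction, with 3 of 10 above 0 and 7 below. Hspa5 (BiP), the ER Hsp70 that is the usual readout of ER stress, had signals of 8778, 5591 and 5115 on the mesonephros-derived arrays and 6639, 7204 and 7124 on the ovary-derived arrays. Mesonephros-derived array 1 was the highest and arrays 2 and 3 were the lowest of the 6. The change was −0.15 ± 0.22 (SE; adjusted p = 0.789 in limma), with a 95% interval of −0.64 to 0.35, and its other probe sets gave −0.34 and −0.21. Hyou1, the exchange factor of BiP, had signals of 7789.5, 7439.5 and 3455 on the mesonephros-derived arrays and 3638, 3619 and 3393 on the ovary-derived arrays. Mesonephros-derived arrays 1 and 2 stood at about the same high level, and array 3 lay among the ovary-derived arrays. The change was 0.72 ± 0.30 (SE; adjusted p = 0.351 in limma), the highest of the ER class, and the adjusted p was 0.058 without mesonephros-derived array 3. With the poly-A covariate the change turned to −0.31. The other Hyou1 probe sets gave 0.26 and 0.39. Hsp90b1, the ER Hsp90, had a change of 0.32, with signals of 8914 to 14765 in mesonephros-derived cells and 8509.5 to 8948 in ovary-derived cells, and its change was 0.099 without mesonephros-derived array 1.

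The J-domain partners of BiP among the members, Dnajb9 and Dnajc3, had changes below 0. Dnajb9 had signals of 2472, 2993 and 2209.6 on the mesonephros-derived arrays and 3060.2, 3539 and 2971 on the ovary-derived arrays. Only mesonephros-derived array 2 reached the ovary-derived range, and the change was −0.32 ± 0.19 (SE; adjusted p = 0.475 in limma). Dnajc3, which also restrains the kinase Eif2ak3, had a change of −0.37, with signals of 1298 to 2623 in mesonephros-derived cells and 1905 to 2736 in ovary-derived cells. The 5 Dnajc3 probe sets past the floor ranged from −0.91 to 0.099, with 4 below 0 and 1 above.

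Of the folding enzymes and lectins, Pdia4, a disulfide isomerase, had signals of 1079, 1147 and 1178 on the mesonephros-derived arrays and 1617, 2042 and 1654 on the ovary-derived arrays. All 3 mesonephros-derived arrays lay below the ovary-derived ones and close together. The change was −0.63 ± 0.21 (SE; adjusted p = 0.286 in limma), or 1.55-fold lower, with a 95% interval of −1.09 to −0.16. A second Pdia4 probe set, below the floor, gave 0.53, and the mean of both gave −0.048. Canx (calnexin), a membrane-bound lectin that holds glycoproteins during folding, had signals of 2088, 1814 and 2740.1 on the mesonephros-derived arrays and 2954, 3604 and 3051 on the ovary-derived arrays. Its groups did not overlap either. The change was −0.55 ± 0.21 (SE; adjusted p = 0.334 in limma), and its other probe sets gave −0.55, again without overlap, and −0.11. Calr (calreticulin), the soluble counterpart of calnexin, had 8894 to 10298 in mesonephros-derived cells and 9089 to 10457 in ovary-derived cells. Its change of −0.02 had a 95% interval of −0.38 to 0.33. The isomerases Pdia3 and Pdia6 had changes of 0.11 and −0.36 with overlapping groups. Hspa5, Hsp90b1, Canx, Calr, Dnajc3 and Pdia6 hold the ER stress response element in the windows searched, and their changes spanned −0.55 to 0.32.

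The ER stress transcription factors pointed in different directions. Xbp1, whose splicing by Ern1 turns it into an activator of ER chaperone and degradation genes, had signals of 2638, 1902 and 2596 on the mesonephros-derived arrays and 3972, 3384 and 2864 on the ovary-derived arrays. Its groups did not overlap, with mesonephros-derived cells the lower. The change was −0.52 ± 0.21 (SE; adjusted p = 0.352 in limma), and all 4 of its probe sets were below 0, from −0.74 to −0.39. Array signals do not separate spliced from unspliced Xbp1. Ddit3 (CHOP), a factor linked to cell death under lasting ER stress, had signals of 1008, 564 and 637 on the mesonephros-derived arrays and 435, 417 and 466 on the ovary-derived arrays. All 3 mesonephros-derived arrays lay above the ovary-derived ones. The change was 0.68 ± 0.30 (SE; adjusted p = 0.365 in limma), but the other Ddit3 probe set gave 0.19 with overlapping groups. Atf4, which is controlled mainly at translation, had signals of 9528, 6580.3 and 5325 on the mesonephros-derived arrays and 6157, 6414 and 6792 on the ovary-derived arrays. The groups overlapped, the change was 0.11 ± 0.22 (SE; adjusted p = 0.855 in limma), and another probe set past the floor gave −0.22.

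The small heat shock proteins hold unfolded proteins without using ATP, and several are abundant in muscle. Of the 6 tested, 5 had a change above 0 and 1 below, and the groups overlapped for all 6. Hspb7, known from heart and muscle, had signals of 278, 179 and 315 on the mesonephros-derived arrays and 82.1, 149 and 184 on the ovary-derived arrays. Mesonephros-derived array 2 lay just below ovary-derived array 3, and the change was 0.85 ± 0.43 (SE; adjusted p = 0.413 in limma). Another Hspb7 probe set past the floor gave 0.43 ± 0.96 (SE), with signals of 20.5 to 694 in mesonephros-derived cells and 70.8 to 235 in ovary-derived cells. A further Hspb7 probe set, below the floor, gave 1.18 without overlap of the groups. Hspb1 (Hsp25), a regulator of actin and an inducible chaperone, had signals of 681, 453 and 591 on the mesonephros-derived arrays and 491, 419 and 349 on the ovary-derived arrays. Its change was 0.43 ± 0.30 (SE; adjusted p = 0.535 in limma). A second Hspb1 probe set, of the kind whose name ends in _x_at because some of its probes can match other transcripts, had signals of 729, 397 and 432 on the mesonephros-derived arrays and 147, 128 and 167 on the ovary-derived arrays. There the groups did not overlap, and the change was 1.67 ± 0.38 (SE), with an adjusted p of 0.212 in limma over all probe sets.

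Hspb6 (Hsp20), a relaxation factor of smooth muscle, had signals of 908, 516 and 1039 on the mesonephros-derived arrays and 528, 574 and 715 on the ovary-derived arrays. Mesonephros-derived array 2 was the lowest of the 6, and the change was 0.38 ± 0.32 (SE; adjusted p = 0.611 in limma). Cryab, the alpha B crystallin of lens and muscle, had signals of 2494, 2195 and 2567 on the mesonephros-derived arrays and 2536, 2031 and 1739 on the ovary-derived arrays. The groups overlapped, with a change of 0.21 ± 0.21 (SE; adjusted p = 0.655 in limma). Hspb2, which binds a muscle kinase, and Hspb8, the partner of Bag3, had changes of 0.17 and −0.01. Averaged over the class, the signal stood at 0.36, 0.15 and 0.51 on mesonephros-derived arrays 1, 2 and 3, and at −0.053, −0.034 and 0.087 on the ovary-derived arrays. The smooth muscle list stood at 1.00, 1.43 and 1.23 on the mesonephros-derived arrays, so the arrays did not fall in the same order in the 2 lists, and the part of smooth muscle in these values was not tested.

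**Figure D4:**
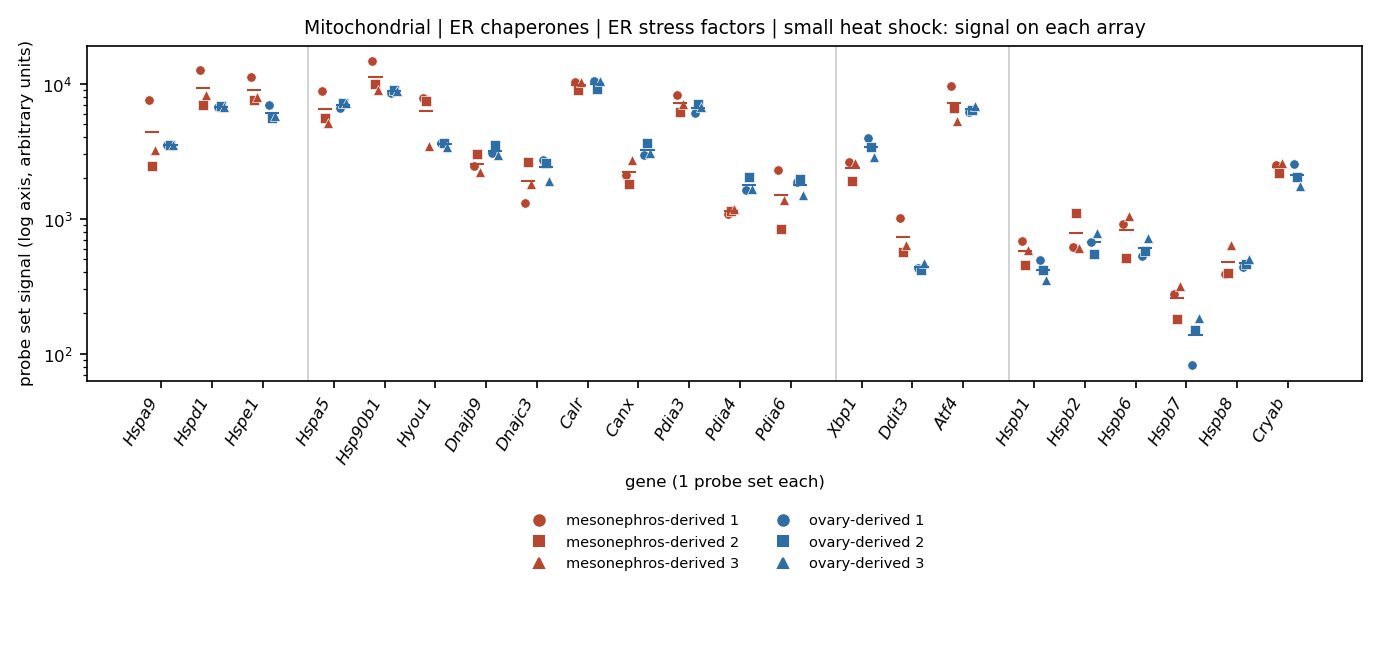
Signal of each mitochondrial chaperone, ER chaperone, ER stress factor and small heat shock protein on each of the 6 arrays (log axis, arbitrary units), with bars at the group means. Pdia4, Canx and Xbp1 lay lower, and Hspd1, Hspe1 and Ddit3 higher, on every mesonephros-derived array than on any ovary-derived array.

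Many members were read by several probe sets, and these did not always point the same way. In all, 95 probe sets named a member and 86 of them lay above the brightness floor. For 17 of the 86 the groups were apart, with 7 higher and 10 lower. The share was 21.3% of all probe sets tested, with 8.82% higher and the rest of it lower. None of the 86 passed an adjusted p of 0.05 in limma, where 0.0148% of all probe sets passed, and 15 had an unadjusted p under 0.05, where 12.9% of all probe sets did. Of 26 members with several such probe sets, 10 had changes on both sides of 0. Hspa4 ranged from −0.58 to 0.58 and Hspa9 from −0.25 to 1.31. The 1.31 came from a dim Hspa9 probe set, with signals of 168 to 183 in mesonephros-derived cells and 41.1 to 119 in ovary-derived cells. The groups did not overlap there. Hspa8, Hspa1b and Hyou1 lay above 0, and Xbp1, Canx and Hspa5 below 0, on every probe set past the floor.

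**Figure D5:**
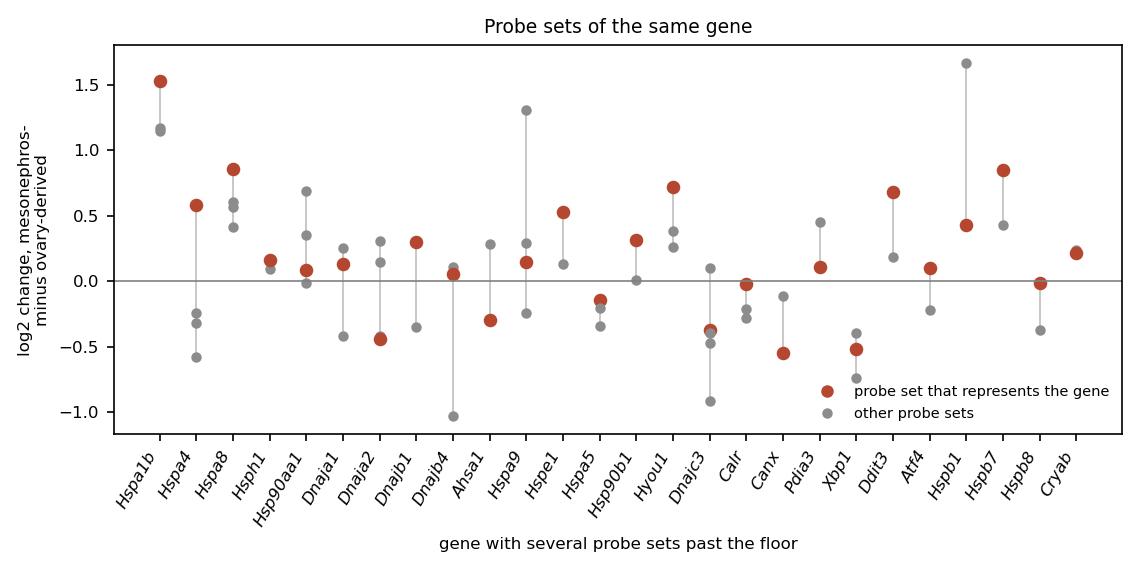
Log2 change, mesonephros-derived minus ovary-derived, of every probe set past the floor for the 26 members with several; large points mark the probe set that represents the gene. The probe sets of Hspa1b and Hspa8 all lie above 0 and those of Xbp1 all below, while those of Hspa4 span 0.

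The same systems hold 81 further genes that are not members, of which 75 were tested. Of these 25 had a change above 0 and 50 below, with a median of −0.18, against −0.08 over all genes. For 14, or 18.7%, the groups did not overlap, with 3 higher and 11 lower. Over all genes tested that share was 22.2%, made of 9.56% higher and 12.6% lower. None passed an adjusted p of 0.05 in limma, where 0.0427% of all genes did. At an unadjusted p of 0.05 in limma there were 2 higher and 4 lower, where 6.46% of all genes were higher and 7.22% lower. A list of further Hsp70 relatives, of any compartment, and of other cytosolic chaperones and co-chaperones had a median of −0.18 over 29 genes. Of these 8 were above 0 and 21 below. Hspa13, an Hsp70 relative, had a change of −0.57, the chaperonin subunit Cct5 had −0.40, and the Hsp70 exchange factor Bag2 had −0.88, each without overlap of the groups. Other mitochondrial quality control genes had a median of −0.29 over 9 genes, with changes of −0.76 for the protease Htra2, −0.50 for the protease subunit Clpp and −0.67 for Grpel1, the exchange factor of Hspa9.

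Other ER folding and degradation genes had a median of −0.16 over 27 genes, with 11 above 0 and 16 below. Serpinh1, the collagen chaperone Hsp47, had signals of 28028, 20994 and 16252 on the mesonephros-derived arrays and 11281, 13432 and 13275 on the ovary-derived arrays. The groups did not overlap, and the change was 0.75 ± 0.21 (SE; adjusted p = 0.252 in limma). Sdf2l1, a stress-inducible partner of BiP, had signals of 234, 128 and 121 on the mesonephros-derived arrays and 361, 411 and 388 on the ovary-derived arrays. Mesonephros-derived cells were the lower throughout for Sdf2l1, with a change of −1.24 ± 0.37 (SE; adjusted p = 0.263 in limma). Edem1, which routes misfolded glycoproteins to degradation, had a change of 0.64, with signals of 814 to 1027 in mesonephros-derived cells and 517 to 678 in ovary-derived cells. Among targets of the integrated stress response, in which Atf4 and Ddit3 act, 3 of 10 tested were above 0 and 7 below, with a median of −0.20. Ppp1r15a, which restarts translation, had a change of −0.62 without overlap of the groups, and the stress factors Nupr1 and Cebpb had changes of 0.52 and 0.67 with overlap. None of the 10 passed an adjusted p of 0.05 in limma, and 1 had an unadjusted p under 0.05, where 13.7% of all genes tested did.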

How the data were processed

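RNA of 6 sorted samples, 3 mesonephros-derived and 3 ovary-derived, was measured on 1-colour oligonucleotide arrays. The authors deposited linear probe set intensities made with MAS5, per the submitters' processing notes, with no version or settings given in the sources used here. Each array had a mean intensity of 500 after trimming 2% at each end, so no further scaling was applied. Control probe sets (64 of 45101) were left out of tests. A single gene symbol was paired with 34945 probe sets by the platform annotation, several with 932 and none with 9160.

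Intensities were taken to log2(signal + 16), which understates changes of dim genes. Each gene was read by its probe set with the highest mean, and genes below the 40th percentile (a signal of 99.4) were not tested. The groups entered a linear model in limma 3.58.1 (R 4.3.3, lmFit and eBayes with a trend), with p adjusted by Benjamini-Hochberg over 11703 genes. The procedure was run on simulated data whose scatter was taken from the ovary-derived arrays only. Over all genes the median SD of log2 signal was 0.48 in the mesonephros-derived and 0.21 in the ovary-derived group. The simulation therefore does not show how the procedure performs at the wider scatter of the mesonephros-derived arrays. Members and lists were chosen with earlier results of these data known. Signals on each array are given for the 4 members with the smallest p in each class and a fixed set of main chaperones and factors, and those of Bag3 and Dnajb1 were added after their values were seen. Of further lists, members past the threshold and up to 3 with the smallest p are named. Promoters came from RefSeq (GRCm38.p6). The labels state no pairing of the groups, so none was used in the main fit. Same-numbered samples had deviations that correlated at 0.020, 0.058 and −0.0075, and such values from 3 arrays a group cannot exclude a pairing. No 2 arrays held identical values. With 3 arrays a group, precision is limited. Alternatives changed the pseudocount, the floor, the normalization, the probe sets, the model and the arrays used.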

Additional observations from a re-analysis of the deposited data

How the results depend on the processing

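The count of members past an adjusted p of 0.05 was 0 under all alternatives run, and the lowest adjusted p of a member was 0.058, for Hyou1 without mesonephros-derived replicate 3. Of all genes tested, 5 passed; the count was 3 with a pseudocount of 1, 2 with median centring, 8 with probe sets averaged per gene, 0 by limma without the trend (1504 at an unadjusted p of 0.05), 129 with array weights, 0 with the poly-A control level as a covariate (306 at an unadjusted p of 0.05), and 0 to 46 when 1 array was left out. With the replicate number as a block 4 genes and 0 members passed at an adjusted p of 0.05, and the lowest adjusted p of a member was 0.303. At an unadjusted p of 0.05 the block gave 7 members in place of 10, 5 other proteostasis genes in place of 6 and 1380 genes in place of 1601. The cause was not tested for any of these shifts.

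The poly-A covariate moved the cytosolic median to −0.29, the small heat shock median to 0.62 and the median of all members to −0.17. That covariate was higher on every mesonephros-derived array than on any ovary-derived array. The fit therefore cannot separate it well from the group, and its values are not corrected directions. Leaving out 1 array gave a cytosolic median of −0.115 to 0.30, a mitochondrial median of 0.17 to 0.61 and an all-member median of −0.086 to 0.19, each lowest without mesonephros-derived array 1. The mitochondrial median was 0.12 with quantile normalization and 0.15 without _x_at and _s_at probe sets. The ER median was −0.37 with quantile normalization, −0.36 with array weights and −0.25 to −0.027 when 1 array was left out. Directions turned in 17 members with the poly-A covariate, namely Hspa1a −0.38, Hspa1b −1.17, Hspa8 −0.12, Hsph1 −0.32, Hsp90aa1 −1.04, Dnaja1 −0.60, Dnajb1 −1.51, Dnajb4 −0.28, Chordc1 −0.11, Hsf2 0.10, Hspa9 −0.28, Hsp90b1 −0.13, Hyou1 −0.31, Calr 0.045, Atf4 −0.50, Hspb2 −0.36 and Hspb8 0.56. With array weights they turned in 11, Hsph1 −0.012, Hsp90aa1 −0.28, Dnaja1 −0.063, Dnajb1 −0.0046, Dnajb4 −0.062, Chordc1 −0.11, Hsf2 0.094, Hspa9 −0.050, Calr 0.051, Atf4 −0.092 and Hspb8 0.22. With quantile normalization they turned in 9, Hsp90aa1 −0.20, Dnaja1 −0.11, Dnajb1 −0.024, Dnajb4 −0.051, Hsf2 0.028, Hsp90b1 −0.086, Pdia3 −0.13, Atf4 −0.14 and Hspb8 0.047. The mean of probe sets gave Hspa4 −0.14, Dnaja1 −0.0090, Dnajb1 −0.024 and Dnajb4 −0.29. Median centring gave Hsf2 0.042, Calr 0.055 and Hspb8 0.065, and leaving out _x_at and _s_at probe sets gave Atf4 −0.22. Leaving out 1 array at a time gave both directions for Hsph1 (−0.36 to 0.53), Hsp90aa1 (−0.42 to 0.46), Dnaja1 (−0.11 to 0.33), Dnajb1 (−0.33 to 0.75), Dnajb4 (−0.032 to 0.15), Stip1 (−0.76 to 0.052), Chordc1 (−0.069 to 0.13), Hsf2 (−0.22 to 0.20), Hspa9 (−0.33 to 0.48), Hspa5 (−0.38 to 0.0044), Calr (−0.090 to 0.047), Pdia3 (−0.0014 to 0.22), Pdia6 (−0.72 to 0.0053), Atf4 (−0.12 to 0.30), Hspb2 (−0.11 to 0.32) and Hspb8 (−0.25 to 0.11).

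Leaving out 1 array moved other members without a turn, among them Hspa1a (1.03 to 2.09), Hspa1b (0.91 to 2.26), Hspa4 (0.23 to 0.67), Hspd1 (0.17 to 0.61), Hsp90b1 (0.099 to 0.46), Dnajc3 (−0.63 to −0.13), Hspb6 (0.19 to 0.68), Hspb7 (0.56 to 1.59) and Cryab (0.088 to 0.36). Members whose representing value kept its sign under these settings were Hspa2, Ahsa1, Dnajc3, Dnaja2, Bag3, Hspd1, Hspe1, Pdia4, Canx, Dnajb9, Xbp1, Ddit3, Hspb1, Hspb6, Hspb7 and Cryab. Signals near the floor, such as those of Hspb7 and Hsf2, carry the least precision.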
